A study of Mus musculus with 14 samples.

Results

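This account covers the genes that release fatty acids from stored triglyceride in fat and the genes of the proteins that coat the lipid droplet. The list has 10 genes. For 9 of them, out of 19937 genes with 1 row each, the table held a probe set with that gene as its single symbol: Pnpla2, Lipe, Mgll, Abhd5, G0s2, Plin1, Plin2, Plin4 and Cidec. The adrenergic receptor gene Adrb3 was not analysed here. Each of the 9 genes had 1 probe set, and no filter on low values was applied. RNA came from the epididymal fat pad, a visceral depot, of male mice on the C57BL6/J strain, with 1 Affymetrix array per mouse and 14 in all. Wild type mice (WT) and mice with the genotype that the labels name EKO and tie to apolipoprotein E ate either a normal diet or a Western diet. The Western diet, HFD in the labels, is described as 42% anhydrous milk fat. Either diet was fed for 24 weeks from an age of 8 weeks. There were 3 WT arrays and 4 EKO arrays for each diet.

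Adipocytes store triglyceride in a large lipid droplet, and lipolysis takes it apart in steps. Adipose triglyceride lipase, encoded by Pnpla2, removes the first fatty acid, hormone-sensitive lipase (Lipe) acts mainly on the diglyceride, and monoglyceride lipase (Mgll) on what is left. The protein of Abhd5, also called CGI-58, activates the first lipase, while that of G0s2 inhibits it. Perilipins coat the droplet: Plin1 in mature adipocytes, where it holds Abhd5 until it is phosphorylated, Plin2 in most cell types that store lipid, macrophages among them, and Plin4 on small droplets of adipocytes. Cidec, also called Fsp27, sits where droplets touch and helps them fuse.

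The levels below are log2 values made with RMA, a method that quantile normalizes the arrays, so they are relative to the other rows of the same array. A level carries its standard deviation (SD), and a log2 fold change its standard error (SE). All adjusted p values come from limma with Benjamini-Hochberg adjustment over 19937 genes, and a gene passed at an adjusted p under 0.05. Array medians ran from 7.92 to 8.10, arrays of a group correlated with each other at 0.980 to 0.996, and the number of arrays limits the precision. Apoe lay between 13.13 and 13.65 in the WT arrays and between 9.46 and 10.26 in the EKO arrays. Adipocyte genes were bright in every group (the dimmest of 13 markers averaged 11.3 over all arrays), while 4 of 8 epididymis markers and the brown fat gene Ucp1 stayed at or below the array background of 6.85 in every group mean. That background is the level of 1194 olfactory and vomeronasal receptor genes, and on this measure 5 arrays (6.75 to 6.85) stood above the other 9 (6.30 to 6.57). The 5 were 1 array of each WT group, 1 of EKO on normal diet and 2 of EKO on Western diet. The labels name no batch. The split was not a term of the fit behind the values below; it was used as a block in an alternative, and its difference for each of the 9 genes is given with those of G0s2 and Abhd5.

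Of the 9 genes, Plin2 alone passed in any of the 5 comparisons. It was higher on Western diet in WT (1 of 9, against 5.49% of all genes) and lower in EKO than in WT on Western diet (1 of 9, against 5.69%). These 2 comparisons share the 3 WT arrays on Western diet. The other 8 passed in none of the 5 when all arrays were fitted together, and their 8 log2 fold changes lay between -0.28 and 0.05 for diet in WT and between -0.20 and 0.11 for diet in EKO.

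The stretches of 250 bases before the start site of Plin2 and of the other perilipin genes of the list are shown because Plin2 was the perilipin that changed. They are RefSeq sequences of the mouse build GRCm38.p6, all on the minus strand, written 5′ to 3′ along the gene. Capitals mark a match to any of 6 motifs searched on both strands.
Plin2, chr4:86670060-86670309: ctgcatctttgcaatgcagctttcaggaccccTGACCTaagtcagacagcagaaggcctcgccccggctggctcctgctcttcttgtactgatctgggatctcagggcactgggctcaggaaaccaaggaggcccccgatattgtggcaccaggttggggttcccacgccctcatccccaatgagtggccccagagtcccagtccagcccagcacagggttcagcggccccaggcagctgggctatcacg
Plin1, chr7:79732777-79733026: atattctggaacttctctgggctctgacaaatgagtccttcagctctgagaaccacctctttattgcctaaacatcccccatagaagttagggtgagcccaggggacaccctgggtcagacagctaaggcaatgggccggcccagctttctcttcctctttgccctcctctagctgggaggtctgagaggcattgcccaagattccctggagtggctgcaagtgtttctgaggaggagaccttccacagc
Plin4, chr17:56109783-56110032: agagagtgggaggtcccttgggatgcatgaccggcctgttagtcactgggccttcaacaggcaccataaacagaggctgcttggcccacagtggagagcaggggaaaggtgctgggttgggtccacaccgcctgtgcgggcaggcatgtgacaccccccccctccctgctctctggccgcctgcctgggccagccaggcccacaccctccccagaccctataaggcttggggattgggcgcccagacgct
The motifs were AGGTCA, the element that many nuclear receptors bind, its direct repeat with a single base between the copies, the E-box CACGTG, the core TGACG of the cyclic AMP response element, the promoter element TATAAA and the GC-rich element GGGCGG. The window of Plin2 held 1 match, AGGTCA on the opposite strand from 218 to 213 bases before the start. The windows of Plin1 and Plin4 held none. Across the 12 windows of the 9 genes (Lipe, Mgll and Cidec have a pair each), AGGTCA occurred in those of Plin2 and Abhd5, against 14% of 32841 windows of all genes. CACGTG occurred in 1 window each of Mgll and Lipe, against 6.02% of all windows, and TGACG in G0s2 and Abhd5, against 17.8%. GGGCGG was found in 5 windows, those of G0s2, Pnpla2 and Abhd5 and 1 each of Mgll and Lipe, against 32.7% of all. TATAAA and the direct repeat were found in none of the 12, against 12.4% and 0.0335% of all. AGGTCA is contained in the direct repeat, and a match of letters is a description of the window only.

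Plin2 roughly doubled on Western diet in WT. Its levels were 11.91, 11.87 and 11.90 in WT on normal diet and 12.81, 12.95 and 13.20 in WT on Western diet. All 3 Western diet arrays lay well above the normal diet arrays, which were close to each other. The log2 fold change was 1.09 ± 0.13 (SE, n = 3 and 3), a 2.13-fold rise with a 95% interval of 1.76 to 2.58, adjusted p = 0.000329. In the alternatives tried the log2 fold change ran from 0.99 to 1.35 and the adjusted p from 5.85e-07 to 0.00672, so Plin2 passed in each of the 16. With the background split as a block the adjusted p was 7.68e-05, and among the arrays of lower background the log2 fold change was 1.19. In the pair of higher-background WT arrays, both replicate 1, Plin2 stood at 11.91 and 12.81.

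In EKO the Plin2 arrays on Western diet also lay above those on normal diet, by a smaller margin. The levels were 12.11, 11.65, 11.85 and 12.18 on normal diet and 12.19, 12.26, 12.28 and 12.27 on Western diet. The normal diet arrays were spread widely, and their highest value nearly met the lowest value on Western diet. The log2 fold change was 0.30 ± 0.11 (SE, n = 4 and 4; 95% interval 0.06 to 0.54), with an unadjusted p = 0.0163 and an adjusted p = 0.946 by limma, so it did not pass over all genes. The diet groups did not overlap for 2.56% of all genes in this comparison. With the split as a block the adjusted p was 0.430, and over the alternatives it ran from 0.259 to 1.0. Without EKO replicate 2 on normal diet, the lowest array, the log2 fold change was 0.20.

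On Western diet Plin2 was lower in EKO than in WT. No array overlapped: the EKO values reached up to 12.28, while the WT values began at 12.81. The log2 fold change was -0.73 ± 0.12 (SE, n = 4 and 3), which is 1.66-fold lower with a 95% interval of 1.39 to 1.99, adjusted p = 0.00284. It passed in each of 17 alternatives, with log2 fold changes of -0.94 to -0.63 and adjusted p values of 3.12e-06 to 0.0253. On normal diet the genotypes overlapped, at 11.95 ± 0.24 in EKO (SD, n = 4) and 11.89 ± 0.02 in WT (SD, n = 3). The difference there was 0.06 ± 0.12, with a 95% interval of -0.20 to 0.31 and adjusted p = 1.0. In order of level, WT and EKO on normal diet came lowest and did not differ beyond their spread, EKO on Western diet followed at 12.25 ± 0.04 (SD, n = 4), which did not pass against EKO on normal diet, and WT on Western diet was highest at 12.98 ± 0.19 (SD, n = 3).

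Whether the diet effect on Plin2 depended on genotype was near the threshold. The diet effect in EKO minus that in WT was -0.79 ± 0.17 on the log2 scale (n = 14), with a 95% interval of -1.15 to -0.43, an unadjusted p = 0.000341 and an adjusted p = 0.0532. With the background split as a block it passed at an adjusted p = 0.0235, and among the arrays of lower background at 0.0246. Of 9 alternatives other than leaving out an array 6 passed, and of the 14 that leave out an array 2 did. Without WT replicate 3 on Western diet, the highest Plin2 array, the difference was -0.68, adjusted p = 0.178. The comparison contains the WT diet comparison, so these results are not independent of it.

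**Figure D1:**
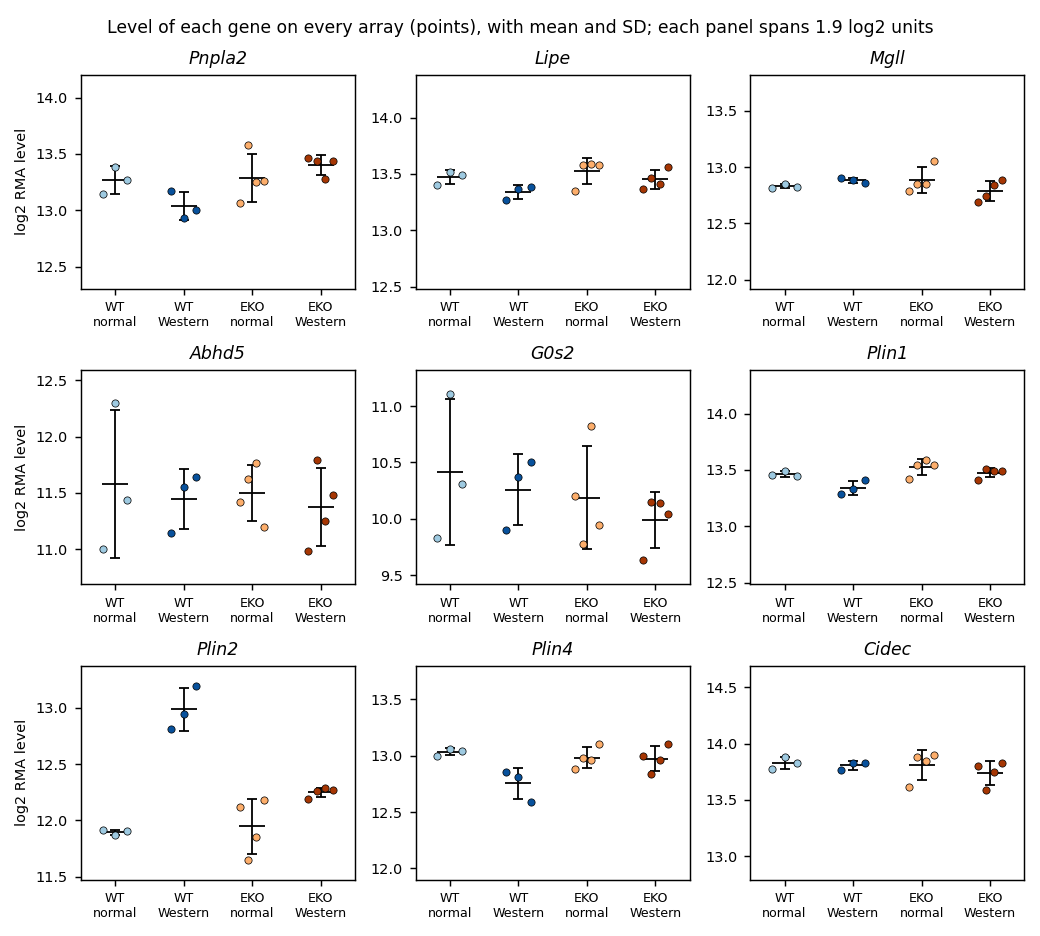
Level of each of the 9 genes on every array (points, log2 RMA level on the y axis), with the group mean and SD as bars, for WT and EKO mice on normal and Western diet; every panel spans the same range of levels. Plin2 stands apart in WT on Western diet, at 12.81 to 13.20, while Abhd5 and G0s2 are spread widely within groups and the other genes lie in narrow bands.

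Markers of other cells moved with Plin2 in WT. The fat pad holds macrophages as well as adipocytes, and Plin2 is expressed in both. In whole tissue, a change in the number of cells of a type and a change in RNA per cell cannot be told apart. Of 14 macrophage markers, all above the array background, 8 rose and 1 fell with Western diet in WT, and none passed in EKO by limma. Their mean level was 9.60 to 9.87 over the WT arrays on normal diet and 10.52 to 10.91 on Western diet. In EKO it was 9.33 to 10.18 on normal diet and 9.69 to 10.06 on Western diet. Within groups, the order of the arrays was the same for Plin2 and the macrophage mean in WT on Western diet and differed in the other 3 groups. In EKO on normal diet replicate 2 was lowest and replicate 4 highest for both, while replicates 1 and 3 went opposite ways (12.11 and 11.85 for Plin2, 9.56 and 9.83 for the macrophage mean). In WT on normal diet replicate 1 had the highest Plin2 level and the lowest macrophage mean. Plin2 hardly varied in that group (11.87 to 11.91) or in EKO on Western diet (12.19 to 12.28), so its order there says little. On Western diet, 8 of the 14 macrophage markers were lower in EKO than in WT. The part of macrophages in the Plin2 result was not tested.

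Most adipocyte markers went the other way in WT. Of 13 adipocyte markers, 5 fell past the threshold and none rose past it in WT on Western diet. In all, 11 log2 fold changes were below 0 and 2 above, the highest that of Lep, from a mean of 12.52 to 13.33. The mean of the 13 markers was 12.61 to 12.68 on normal diet and 12.36 to 12.44 on Western diet. In EKO the mean was 12.63 to 12.72 on normal and 12.45 to 12.72 on Western diet, and none passed in the diet comparison by limma. On Western diet 5 of the 13 were higher and 2 lower in EKO than in WT. When each array was centred on this mean, the WT diet log2 fold change of Plin2 was 1.35 and its EKO against WT value on Western diet was -0.94. Centring shifts all genes of a comparison by the same amount. The median of all genes moved to 0.24 and -0.18 in these comparisons, so the Plin2 values are not a test of adipocyte content. Of 8 mesothelial markers, 6 fell with Western diet in WT, and 1 of 8 was higher in EKO than in WT on Western diet. None of 7 brown and beige fat markers and none of 8 epididymis markers passed in any comparison.

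**Figure D2:**
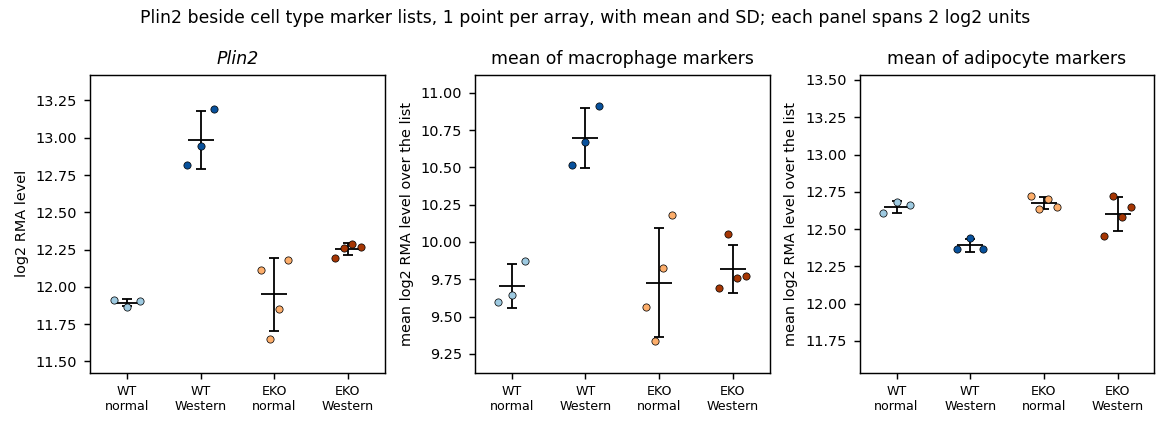
Plin2 level (left), mean level of 14 macrophage markers (middle) and mean level of 13 adipocyte markers (right), each in log2 RMA units with 1 point per array and the group mean and SD. In WT on Western diet Plin2 (12.81 to 13.20) and the macrophage mean (10.52 to 10.91) are at their highest and the adipocyte mean (12.36 to 12.44) is at its lowest.

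The genes with the pattern most like Plin2 over the 14 arrays, by Pearson's r, were Cela1, an elastase-like protease gene, Gsap, which encodes a gamma-secretase activating protein, and C3ar1, the receptor of complement C3a. Their r values were 0.958, 0.956 and 0.955, and Spearman's rho was 0.974, 0.890 and 0.820. Each of the 3 had its highest group mean in WT on Western diet, as Plin2 did, and these values are a description without a test. After the group means were taken out, r was 0.725 for Cela1, 0.816 for Gsap and 0.718 for C3ar1. C3ar1 rose from a mean of 10.34 to 11.85 with Western diet in WT and was at 10.37 and 10.66 in EKO.

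Of the lipase genes, none passed in any comparison outside the alternatives given below. Pnpla2, the first lipase, was at 13.14, 13.39 and 13.27 in WT on normal diet and 13.17, 12.93 and 13.00 on Western diet. These groups overlapped, and the log2 fold change was -0.23 ± 0.12, adjusted p = 0.380 (n = 3 and 3). Among the arrays of lower background it was -0.36, adjusted p = 0.0481, and with array weights -0.32, adjusted p = 0.00368. Of all 19937 genes 2152 passed for diet in WT in the former setting and 5224 in the latter. In EKO Pnpla2 was at 13.06, 13.58, 13.25 and 13.26 on normal diet and 13.46, 13.44, 13.28 and 13.43 on Western diet, a log2 fold change of 0.11 ± 0.10, adjusted p = 0.946 (n = 4 and 4). On Western diet each EKO array of Pnpla2 lay above each WT array. That difference was 0.37 ± 0.11 with a 95% interval of 0.12 to 0.61 and did not pass (adjusted p = 0.0768). Among the arrays of lower background it was 0.47, adjusted p = 0.0210, with array weights it was 0.47 as well, adjusted p = 4.66e-05, and without WT replicate 1 on Western diet it was 0.44 and passed. For EKO against WT on Western diet 1616 of all 19937 genes passed among the arrays of lower background and 6789 with array weights. The adjusted p of the difference between the diet effects on Pnpla2 was 0.456 over all arrays, 0.0487 among the arrays of lower background and 0.00801 with array weights. The lower-background set is small: it leaves out 1 of 3 arrays of each WT group and 2 of 4 of EKO on Western diet.

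Lipe and Mgll, the later steps, held within narrow bands. Lipe was at 13.40, 13.52 and 13.49 in WT on normal diet and 13.27, 13.36 and 13.39 on Western diet, and at 13.35 to 13.59 over the 8 EKO arrays. The WT groups did not overlap, but the log2 fold change of -0.13 ± 0.09 did not pass (adjusted p = 0.570), and its 95% interval was -0.32 to 0.06. Mgll was at 12.82, 12.85 and 12.83 in WT on normal diet and 12.91, 12.88 and 12.86 on Western diet. Here too the groups did not overlap, with Western diet higher by 0.05 ± 0.09 (95% interval -0.13 to 0.24, adjusted p = 0.910). In EKO Mgll was at 12.79 to 13.05 on normal and 12.69 to 12.88 on Western diet, with a log2 fold change of -0.09 ± 0.07. On Western diet the EKO minus WT values were 0.11 ± 0.08 for Lipe and -0.09 ± 0.08 for Mgll. Lipe passed there with array weights (0.15, adjusted p = 0.0372), as 6789 of all 19937 genes did. Mgll passed with arrays centred on the adipocyte markers (-0.30, adjusted p = 0.0458). With that centring 4181 of all genes passed, 4041 of them lower, and the median of all genes was -0.18. Over the 14 arrays Lipe spanned 0.32 and Mgll 0.36 log2 units.

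Plin1, the coat gene of mature adipocytes, was the steadiest of the 9 genes. Plin1 was at 13.45, 13.49 and 13.45 in WT on normal diet and 13.29, 13.33 and 13.41 on Western diet. All 3 Western diet arrays were lower, by 0.12 ± 0.08 on average (95% interval of the log2 fold change -0.29 to 0.04, adjusted p = 0.492). In EKO Plin1 was at 13.42, 13.54, 13.58 and 13.55 on normal diet and 13.41, 13.51, 13.49 and 13.49 on Western diet. Its SD within groups, 0.0540, was larger than that of only 0.913% of all genes. On Western diet each EKO array of Plin1 was above the WT arrays, although the nearest pair both round to 13.41, with a difference of 0.14 ± 0.07, adjusted p = 0.323 (0.0119 with array weights).

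Plin4 came next to Plin2 in the size of its diet value in WT. It was at 13.00, 13.06 and 13.05 on normal diet and 12.86, 12.81 and 12.59 on Western diet, without overlap. The log2 fold change was -0.28 ± 0.10 with a 95% interval of -0.49 to -0.08, an unadjusted p = 0.0107 and an adjusted p = 0.117, so it did not pass, although it did with array weights (-0.25, adjusted p = 0.0216). In EKO Plin4 was at 12.88 to 13.11 on normal and 12.84 to 13.10 on Western diet, with a log2 fold change of -0.01 ± 0.08. The difference between these diet effects was 0.27 ± 0.13, adjusted p = 0.460. On Western diet EKO was above WT by 0.22 ± 0.09 with overlapping groups (adjusted p = 0.189, and 0.0133 with array weights). Cidec, the droplet fusion gene, ran from 13.59 to 13.90 over all 14 arrays, with log2 fold changes of -0.02 ± 0.09 for diet in WT and -0.07 ± 0.08 in EKO. These levels are near the top of the arrays' range, where the highest value of any row was 14.44 to 14.55. Plin1, Lipe and Pnpla2 were also high, with means over all arrays of 13.46, 13.45 and 13.26.

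**Figure D3:**
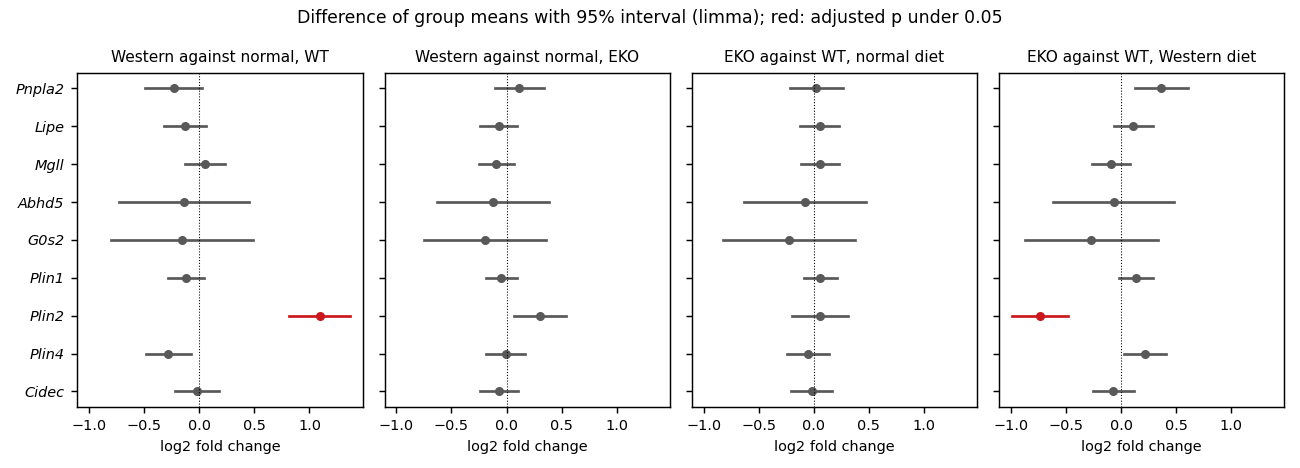
Log2 fold change (x axis, points) with its 95% interval (lines, limma) of each of the 9 genes in the 4 pairwise comparisons, with values that passed at an adjusted p under 0.05 in red. Plin2 passed for diet in WT (1.09) and for EKO against WT on Western diet (-0.73), and the intervals of Abhd5 and G0s2 are the widest.

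Abhd5 and G0s2, the activator and the inhibitor of the first lipase, were the least steady of the 9 genes. Abhd5 was at 11.00, 12.30 and 11.44 in WT on normal diet and 11.14, 11.55 and 11.64 on Western diet, and in EKO at 11.42, 11.62, 11.76 and 11.20 on normal diet and 10.98, 11.79, 11.25 and 11.48 on Western diet. G0s2 was at 9.83, 11.11 and 10.30 in WT on normal diet and 9.90, 10.37 and 10.50 on Western diet, and in EKO at 10.20, 9.78, 10.82 and 9.94 on normal diet and 9.63, 10.15, 10.14 and 10.04 on Western diet. All 4 groups overlapped for both genes. WT replicate 2 on normal diet was the highest array for both. The SD within groups was 0.394 for Abhd5 and 0.430 for G0s2, larger than in 97.9% and 98.5% of all genes, against a median of 0.158. The diet log2 fold changes were -0.13 ± 0.28 and -0.16 ± 0.30 in WT, with 95% intervals of -0.72 to 0.46 and -0.80 to 0.48. Their sign was not settled: without WT replicate 2 on normal diet they were 0.22 and 0.19, without WT replicate 1 on Western diet 0.016 and 0.022, and with array weights 0.029 and 0.0019. In EKO they were -0.12 ± 0.24 and -0.20 ± 0.26, and EKO against WT on Western diet gave -0.07 ± 0.26 and -0.27 ± 0.28.

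Part of the spread of these genes went with the array background, and both genes also varied widely among the arrays of lower background. With the 4 groups taken into account, G0s2 was lower in the 5 arrays of higher background by 0.51 ± 0.16 (adjusted p = 0.0245) and Abhd5 by 0.41 ± 0.16 (adjusted p = 0.0494). Thus 2 of the 9 genes passed for the split, against 43.0% of all genes. All genes here include the 1194 receptor genes whose mean level defined the split. G0s2 ran from 9.63 to 10.14 in the 5 arrays of higher background and from 9.94 to 11.11 in the other 9. Abhd5 ran from 10.98 to 11.62 and from 11.20 to 12.30. Plin2 differed by -0.15 ± 0.08 (adjusted p = 0.116), Pnpla2 by 0.08, Lipe by -0.07, Plin1 by -0.03, Mgll and Plin4 by -0.02 and 0.02, and Cidec by 0.01, with an adjusted p of 0.331 to 0.870 for these 6. With the split as a block neither gene passed in any comparison, and their diet log2 fold changes were -0.13 ± 0.23 for Abhd5 and -0.16 ± 0.23 for G0s2 in WT, and -0.02 ± 0.20 and -0.07 ± 0.21 in EKO.

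**Figure D4:**
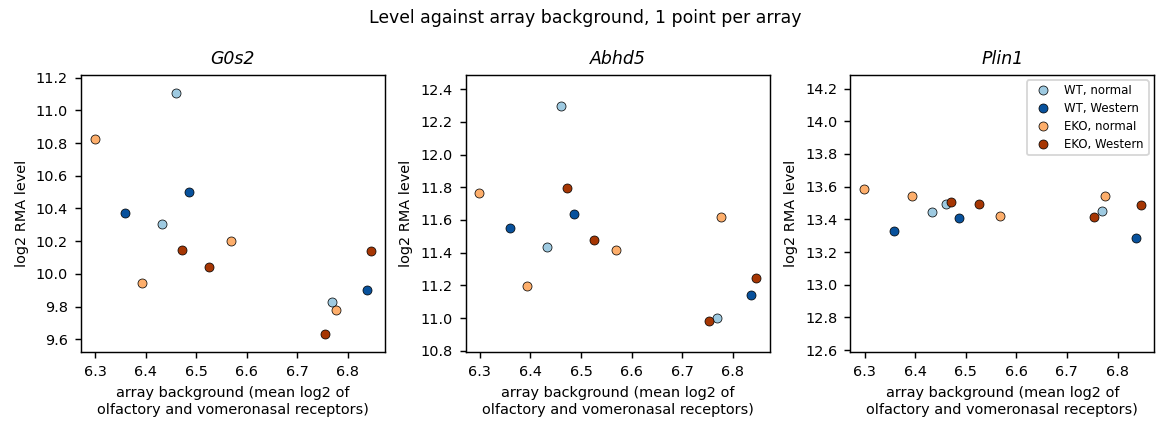
Level of G0s2, Abhd5 and, for contrast, Plin1 (y axis, log2 RMA units, same span in each panel) against the array background (x axis, mean log2 level of the olfactory and vomeronasal receptor genes), 1 point per array and coloured by group. In the 5 arrays at a background of 6.75 or more G0s2 is at 9.63 to 10.14 and Abhd5 at 10.98 to 11.62, while Plin1 stays between 13.29 and 13.58 over all arrays.

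The counts over the 9 genes were as follows. In WT 5 of the 9 had diet groups that did not overlap, 2 higher and 3 lower, against 20.0% of all genes. Their median diet log2 fold change was -0.13 in WT and -0.07 in EKO, against -0.02 and 0.01 over all genes. Apart from Plin2, 7 of 8 values lay below 0 in WT, and also below the median of all genes, and without WT replicate 2 on normal diet or WT replicate 1 on Western diet 4 of 8 lay below each. Centring on the adipocyte markers moved the median of all genes for diet in WT to 0.24, and 7 of the 8 lay below that median and 1 below 0. For diet in EKO none of the 9 passed by limma, against 0% of all genes, and 1 had an unadjusted p under 0.05; over all genes 883 had. EKO against WT on normal diet gave none of the 9 by limma, against 0.00502% of all genes, none with an unadjusted p under 0.05, as 226 of all genes had, and none whose groups did not overlap, against 1.72%. On Western diet 1 of the 9 passed, against 5.69% of all genes, and 3 did not overlap (Pnpla2, Plin1 and Plin2), against 16.6%. For the difference between the diet effects none of the 9 passed by limma, against 0.482% of all genes, and 3 (Plin2, Pnpla2 and Plin4) had an unadjusted p under 0.05, as 2162 of all 19937 genes had. The split of all calls into higher and lower moved with the scaling. For diet in WT 58.1% of the calls were higher, against 69.9% with median centring and 95.4% when centred on the adipocyte markers. For EKO against WT on Western diet the shares were 28.7%, 16.5% and 3.35%, and for the difference between diet effects 30.2%, 18.5% and 4.60%; centring on the adipocyte markers moved the medians of all genes to -0.18 and -0.15 there.

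The wider machinery of lipolysis was looked at through a list of 28 genes of its cyclic AMP arm, of which 22 were measured. The 22 hold receptors, G proteins, adenylyl cyclases, protein kinase A subunits, phosphodiesterases, arrestins and genes of the cyclic GMP branch. Their G protein genes are Gnai1 and Gnai2, and their receptor genes Hcar1, Hcar2, Ptger3, Npr1 and Npr3. No adrenergic receptor gene, Gnas or Prkaca is among the 22, so the counts below do not cover those. In WT on Western diet 1 of the 22 fell and none rose, against 5.49% of all genes that passed in either direction. That gene was Pde3b, the phosphodiesterase through which insulin lowers cyclic AMP in adipocytes. Its mean went from 12.33 ± 0.14 to 11.54 ± 0.14 with Western diet in WT (SD, n = 3 each), a log2 fold change of -0.79 ± 0.12, adjusted p = 0.00192, and from 12.33 ± 0.17 to 12.24 ± 0.15 in EKO (SD, n = 4 each). On Western diet 2 of the 22 were higher in EKO than in WT, Pde3b by 0.70 ± 0.11 (adjusted p = 0.00289) and Hcar1, the lactate receptor that restrains lipolysis, by 1.26 ± 0.30 (adjusted p = 0.0245). In either direction 5.69% of all genes passed there. Pde3b passed in each of the 16 and 17 alternatives of these comparisons. The Hcar1 call ended without WT replicate 2 or 3 or EKO replicate 2 or 4 on Western diet (adjusted p up to 0.129). Hcar1 averaged 10.63 on normal and 9.63 on Western diet in WT (adjusted p = 0.0923) and 10.52 and 10.89 in EKO. The differences between diet effects were 0.70 ± 0.16 for Pde3b (adjusted p = 0.0774) and 1.37 ± 0.43 for Hcar1 (adjusted p = 0.192), and none of the 22 passed by limma. Nor did any of them pass for diet in EKO, where Prkacb, a catalytic subunit of protein kinase A (-0.20 ± 0.08), and Prkg1, the kinase of the cyclic GMP branch (-0.25 ± 0.10), had the smallest p, or for EKO against WT on normal diet, where the receptor gene Hcar2 (-0.39 ± 0.23) and the phosphodiesterase gene Pde4d (-0.26 ± 0.16) had. The list's median log2 fold change was -0.01 for diet in WT and -0.02 for EKO against WT on Western diet.

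Of 23 other lipid droplet genes 22 were measured, 1 of them, Hsd17b13, at or below the array background. In WT on Western diet 1 fell and none rose, against 5.49% of all genes that passed in either direction. That gene was Mettl7a1, which encodes a methyltransferase-like protein of droplets and the endoplasmic reticulum, which went from 11.99 ± 0.24 to 11.34 ± 0.16 (SD, n = 3 each; log2 fold change -0.66 ± 0.15, adjusted p = 0.0163). Its call ended when the fit held only the WT arrays (adjusted p = 0.0654), when arrays were centred on the adipocyte markers (0.0677), and without WT replicate 2 or 3 on normal diet or replicate 2 on Western diet (adjusted p up to 0.0874). On Western diet 2 of the 22 were higher in EKO than in WT, Mettl7a1 by 0.68 ± 0.14 (adjusted p = 0.00945) and the droplet dehydrogenase gene Hsd17b11 by 0.40 ± 0.09 (adjusted p = 0.0219). The third gene to pass, Hilpda, whose protein binds and inhibits the first lipase, was lower by 0.96 ± 0.25 (adjusted p = 0.0368). In either direction 5.69% of all genes passed in this comparison. Hilpda was at 7.85 to 9.32 in WT and 7.64 to 7.84 in EKO on Western diet. Single arrays decided some of these calls: that of Mettl7a1 ended without WT replicate 2 on Western diet (adjusted p = 0.0641), that of Hsd17b11 without 3 of 7 arrays (WT replicates 2 and 3 and EKO replicate 4) and that of Hilpda without 6 of 7, all but WT replicate 1. The Hsd17b11 call also ended with median centring (adjusted p = 0.0622), adipocyte centring (0.253) and only the groups compared (0.0648), and that of Hilpda with only the groups compared (0.0892). Without WT replicate 2 the Hilpda difference was -0.64. For diet in EKO none of the 22 passed by limma, and Plin5, the perilipin of oxidative tissues (0.30 ± 0.09), and Cav2, a caveolin gene (-0.36 ± 0.11), had the smallest p. For EKO against WT on normal diet none passed, with Rab18 (0.21 ± 0.14) and Abhd6 (0.12 ± 0.09) first by p. None passed for the difference between diet effects, where Mettl7a1 (0.77 ± 0.19, adjusted p = 0.0994) and Hilpda (-0.98 ± 0.35, adjusted p = 0.286) came first. The list's median log2 fold change was -0.03 for diet in WT and -0.02 for EKO against WT on Western diet.

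**Figure D5:**
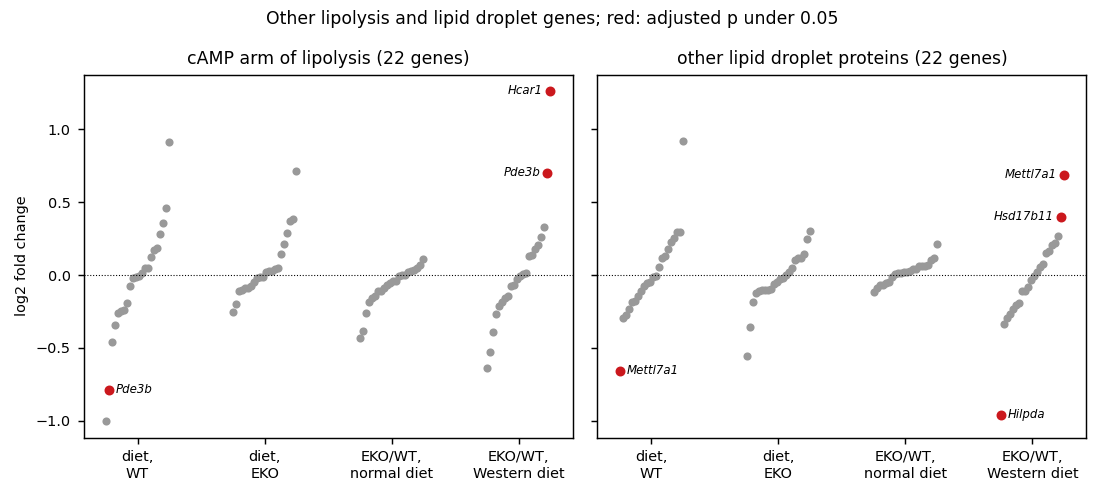
Log2 fold change (y axis) of each measured gene of the cyclic AMP arm of lipolysis (left, 22 genes) and of other lipid droplet proteins (right, 22 genes) in the 4 pairwise comparisons, sorted within each; red points passed at an adjusted p under 0.05 and are named. Pde3b (-0.79) and Mettl7a1 (-0.66) passed for diet in WT, and Hcar1, Pde3b, Mettl7a1, Hsd17b11 and Hilpda for EKO against WT on Western diet.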

How the data were processed

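Total RNA of 14 fat pads was hybridised to Affymetrix arrays. The log2 values the authors deposited came from RMA, as the submitters' processing notes say, and no source used here gives its version or settings. All 34760 rows (4.21 to 14.5) were taken as deposited. GEO's platform annotation gives 21640 rows a single symbol, and the probe set with the highest mean stood for a gene. All 9 genes matched RefSeq by Entrez ID. Groups come from the labels, which call replicates biological.

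A mean per group was fitted to all arrays (limma 3.58.1, R 4.3.3, lmFit and eBayes, 10 residual degrees of freedom, two-sided), with tests on simulated data first. Alternatives were median centring, no dimmest 25% of genes, mean of probe sets, trend and robust prior, array weights, background split as a block or its lower set alone, replicate block, groups compared alone, adipocyte centring and leaving out each array. The genes, lists and tests were chosen with earlier results of these data known. All 9 genes are named throughout; of the lipolysis and droplet lists, up to 4 genes that passed, otherwise the pair lowest in p; and the 3 genes most like a gene that passed. Cell type marker lists (adipocyte, macrophage, mesothelial, epididymis, brown and beige fat) come from general knowledge. Figures used matplotlib 3.10.9.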

Additional observations from a re-analysis of the deposited data

Results flagged for a closer look

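An outlying array was looked for in 32 series of 4 EKO arrays, those of the 9 genes and of the list means, and 2 were found; chance gives about 1 in 20. Pnpla2 in EKO on Western diet was at 13.28 in replicate 3, below the other arrays of the group (13.43 to 13.46). Lipe in EKO on normal diet was at 13.35 in replicate 1, below the other arrays of the group (13.58 to 13.59).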

How the results depend on the processing

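The Plin2 calls for diet in WT and for EKO against WT on Western diet held in every alternative run, and its test of the difference between diet effects moved across the threshold in 8 of 23. Over the 9 genes, 5 comparisons and their alternatives, 732 of 819 values kept their sign and side of the threshold, 20 came to pass, none was lost and 67 changed sign, none of these past the threshold in either setting. Many of the 819 could not change sign. The dim filter, mean of probe sets, trend and robust prior and groups compared alone leave the fold changes of these genes as they were. For diet in WT the block fits do so too. These settings bear on the adjusted p only. All 9 genes lay above the array background, and 3 or 4 arrays per group limit the precision. With the background block the SE for diet in WT went from 0.30 to 0.23 for G0s2 and from 0.28 to 0.23 for Abhd5. The cause of each change named here was not tested. The lowest of the leave-one-out counts is without WT replicate 3 on Western diet for diet in WT and for EKO against WT on Western diet.
The count of all genes for diet in WT (1094) became 5224 with array weights, 2007 with the background block, 2152 with lower-background arrays, 3607 centred on the adipocyte markers, 479 with only the groups compared and 415 to 1514 without single arrays. For diet in EKO (0) it became 8 with array weights, 1 with the replicate block, 1 centred on the adipocyte markers and 0 to 4 without single arrays. For EKO against WT on normal diet (1) it became 2 without the dimmest genes, with the trend and robust prior, with array weights, with the background block, with lower-background arrays and with the replicate block, and 1 to 3 without single arrays. On Western diet (1134) it became 6789 with array weights, 2033 with the background block, 4181 centred on the adipocyte markers and 316 to 2108 without single arrays. For the difference between diet effects (96) it became 2338 with array weights, 320 with the background block, 566 with lower-background arrays, 159 with the replicate block, 587 centred on the adipocyte markers and 37 to 499 without single arrays.
The count among the 9 genes for diet in WT (1) became 3 with array weights and 2 with lower-background arrays, where 5224 and 2152 of all 19937 genes passed. On Western diet (1) it became 5 with array weights, 2 with lower-background arrays, 2 centred on the adipocyte markers and 1 to 2 without single arrays. Of all genes 6789, 1616 and 4181 passed there with array weights, lower-background arrays and adipocyte centring. For the difference between diet effects (0) it became 1 without the dimmest genes, 1 with the trend and robust prior, 2 with array weights, 1 with the background block, 2 with lower-background arrays, 1 centred on the adipocyte markers and 0 to 1 without single arrays. Without the dimmest genes 122 of 14952 genes passed, and with the trend and robust prior 122 of 19937. The other counts of all genes are given above. Same-numbered replicates were not treated as pairs, since the labels do not say that replicate numbers pair animals. Their deviations from the group means correlated above 0.1 in 12 of 19 pairs (range -0.59 to 0.64). The deviations also carry the background split, so they cannot decide whether replicates were paired. With the replicate block the Plin2 difference between diet effects had an adjusted p of 0.0530, the counts of all genes were 1300 for diet in WT and 1672 on Western diet, and no call of the 9 genes changed.
Signs changed as follows (log2 fold changes). For diet in WT, centring on the adipocyte markers gave Pnpla2 0.027, Lipe 0.13, Abhd5 0.12, G0s2 0.10, Plin1 0.13 and Cidec 0.24, array weights gave Abhd5 0.029 and G0s2 0.0019, and median centring gave Cidec 0.038. Without single arrays Abhd5 ran from -0.42 to 0.22, G0s2 from -0.45 to 0.19 and Cidec from -0.046 to 0.0044. For diet in EKO, lower-background arrays gave Lipe 0.0076 and Abhd5 0.18, adipocyte centring gave Plin1 0.026, Plin4 0.064 and Cidec 0.0037, and array weights gave Plin4 0.041. Without single arrays Abhd5 ran from -0.26 to 0.0075, G0s2 from -0.33 to 0.014 and Plin4 from -0.052 to 0.036. For EKO against WT on normal diet, Pnpla2 was -0.025 with array weights, -0.14 with lower-background arrays and -0.0039 with adipocyte centring, and Abhd5 was 0.011 with array weights. Without single arrays Pnpla2 ran from -0.075 to 0.098, Mgll from -0.00087 to 0.086, Abhd5 from -0.37 to 0.28, G0s2 from -0.52 to 0.12, Plin2 from -0.021 to 0.15 and Cidec from -0.051 to 0.045. On Western diet, adipocyte centring gave Lipe -0.099 and Plin1 -0.075, and Abhd5 was 0.00056 with the background block, 0.041 with lower-background arrays and -0.22 to 0.063 without single arrays. For the difference between diet effects, median centring gave Lipe -0.021, Abhd5 -0.066 and Plin1 -0.0012, adipocyte centring gave Lipe -0.13, Abhd5 -0.17 and Plin1 -0.11, array weights gave Abhd5 -0.050, and G0s2 was 0.086 with the background block and 0.041 with lower-background arrays. Without single arrays Lipe ran from -0.0024 to 0.090, Abhd5 from -0.35 to 0.30, G0s2 from -0.39 to 0.25 and Cidec from -0.11 to 0.0025.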
